A study of Homo sapiens with 30 samples.

Results

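The comparison described here is wild type UTX against an empty vector (EV) in UMUC1 bladder cancer cells kept in sphere medium, that is, the 3 libraries UTX_sphere against the 3 libraries EV_sphere. These 6 samples of the 30 in the series were chosen by their labels alone. Of 58288 genes in the table, 19629 had enough counts to be tested. The cells were UMUC1, a cultured bladder cancer line whose own UTX, the protein made from the gene KDM6A, is inactivated by mutation according to the series record. All groups carried that mutation, so UTX was added back by a vector rather than removed. EV cells stably carried pSIN-puro with no insert and UTX cells stably carried pSIN-puro with wild type UTX. In sphere medium the cells had been moved from MEM with 10% serum to MEM without serum, with the growth factors FGF2 and EGF (20 ng/ml each) and B27 lacking vitamin A, and RNA was taken on day 3. Another 3 libraries in sphere medium (HEAA_sphere) carried UTX with the changes H1146A and E1148A in its demethylase domain, and EV_full and UTX_full were the same vectors in MEM with 10% serum. The labels do not say whether replicates were separate cultures or whether a vector line was 1 clone. The spread that p-values are based on may therefore be technical. EV and UTX cells were also separate vector lines. Whether differences between their libraries come from UTX or from the lines was not tested, in either medium.

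UTX removes methyl groups from lysine 27 of histone H3, a mark that Polycomb repressive complex 2 writes on silenced genes, and it also works as a subunit of the KMT2C and KMT2D complexes at enhancers. KDM6A is among the genes most often inactivated in bladder cancer. Normal urothelium has basal cells rich in KRT5 and an upper layer that makes uroplakins, while stratified squamous epithelia such as epidermis replace basal keratins with KRT1 and KRT10 and then build a cornified envelope. Bladder cancers may keep urothelial features, lose them, or turn on squamous genes.

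KDM6A was high in every library labelled UTX and low in every library labelled EV. Its level in library-scaled counts (CPM) was 7.71, 9.08 and 7.74 in EV and 855.1, 877.6 and 849.3 in UTX. HEAA libraries held 942.9 ± 15.3 CPM (SD, n = 3). The counts do not tell RNA of the vector from RNA of the mutated gene (chromosome X, 44873177 to 45112602 in GENCODE v29 on GRCh38). The epithelial markers KRT5, KRT8, KRT18, EPCAM and CDH1 were present in all 6 libraries, with EPCAM at 152.7 to 179.1 CPM and CDH1 at 469.4 to 794.3 CPM.

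EV libraries had 31305529 to 34305388 counts and UTX libraries 23749352 to 25743116, so that all EV libraries were deeper than all UTX libraries. The 10 genes with the most counts took 7.206% to 7.586% of each EV library and 4.996% to 5.072% of each UTX library. Markers of other cell types were low but not equal in the 2 groups. Their sums cover only the markers with enough counts to be tested. For 8 of 11 fibroblast markers the sum was 12.8 to 14.7 CPM in EV and 22.1 to 24.2 CPM in UTX, most of it COL1A1. COL3A1, POSTN and FAP were at 0 counts. For 3 of 11 leukocyte markers the sums were 9.0 to 10.8 CPM and 15.6 to 16.2 CPM, most of it CD68. MS4A1 and NKG7 were at 0 counts. For 4 of 7 endothelial markers the sums were 3.85 to 4.27 CPM and 5.05 to 5.33 CPM, and KDR was at 0 counts. The part of such markers in the results below was not tested. In bulk RNA, fewer cells that express a gene and less RNA per cell cannot be told apart.

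With UTX in sphere medium, abundant basal and early squamous keratins and most desmosome genes were lower, many genes of the cornified envelope and 3 uroplakin genes were higher, and most genes of serine synthesis and the amino acid response were lower. Of the 19629 genes tested, 4477 (22.8%) were higher and 5027 (25.6%) lower at an adjusted p under 0.05, which is 48.4% in either direction. The median log2 fold change (log2FC) over all genes tested was −0.01. Shares called were larger in protein-coding and in abundant genes. Of 14125 protein-coding genes tested 27.6% were higher and 31.4% lower. Of 9593 genes with a mean of at least 10 CPM 2704 were higher and 3870 lower. The counts of list members below are to be read beside these shares too. At least 2-fold differences were fewer and leaned upward, with 1195 genes (6.09%) higher and 523 (2.66%) lower. Most of these had low levels: 345 of the higher and 186 of the lower genes had a mean of at least 5 CPM. In 10710 genes (54.6%) all 3 libraries of one group lay above all 3 of the other. The split depended on scaling: by total count alone, which moved the median gene by 0.108 on the log2 scale, 6020 genes were higher and 3366 lower, so that 64.1% of calls were higher against 47.1% with TMM factors.

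By level, keratins led the falls. The 8 largest falls in CPM were KRT5, IGF2, KRT13, KRT10, KRT1, EEF1A1, KRT6A and KRT17, and they add up to 40282.1 CPM of the 158947.8 CPM lost by all genes called lower. Genes called higher gained 79825.7 CPM in all, and KDM6A itself, AHNAK, GLRX3, APLP2, PLEC, FLNA and SDC1 were among the 8 largest rises. CPM is not divided by gene length, so these sums count reads and not molecules. With TMM factors the CPM of the 2 groups need not add up to the same total. The gap between CPM lost and CPM gained therefore depends on the scaling and does not measure a net loss of RNA. IGF2, a growth factor, was at 13161.2, 12481.5 and 13599.4 CPM in EV and at 4639.2, 4715.9 and 4847.1 CPM in UTX (log2FC −1.47 ± 0.03 SE, adjusted p = 1.6e-18). The lowest EV library lay far above the highest UTX library.

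The largest fall by fold was in SPARC, a matricellular protein that binds collagen (chromosome 5, 151661096 to 151687165). It was at 30.1, 28.4 and 27.7 CPM in EV and 0.318, 0.384 and 0.43 CPM in UTX, which is 76.1-fold lower (log2FC −6.24 ± 0.14, adjusted p = 9.79e-19). MME, the cell surface peptidase neprilysin, was at 17.0, 17.2 and 14.6 CPM against 0.796, 0.427 and 0.774 CPM (log2FC −4.59 ± 0.15). Neither gene's groups came near each other. TENM2 (teneurin 2, log2FC −4.56), IGFBP6 (an IGF-binding protein with a preference for IGF2, −3.67), the homeobox gene MEOX1 (−5.27), ARHGAP28 (a GTPase-activating protein, −3.44) and LOX (lysyl oxidase, which crosslinks collagen, −3.06) fell as well, each with separated libraries.

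After KDM6A the largest rise was in GJA5, the gap junction protein connexin 40 (chromosome 1, 147756199 to 147773362). It was at 0.234, 0.244 and 0.259 CPM in EV and at 11.1, 13.5 and 12.3 CPM in UTX, 50.2-fold higher (log2FC 5.62 ± 0.15, adjusted p = 1.89e-17). Of 9 connexins 3 were higher and 2 lower (median 0.07), with 1 lower without EV_sphere 3 or without the filter, and 6 higher and 1 lower by total count scaling. CORO2B, an actin-binding coronin, rose from 0.59 to 20.6 CPM (log2FC 5.11 ± 0.12). The remaining top rises were TGM3, CEACAM6, CNFN, TSPAN1, TLL2, MISP, CYP4F22, PSCA and VSIG10L, which rose between 9.99-fold and 29.1-fold. Several of these are described with their groups below.

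Most basal keratins fell, while basal surface markers were more often higher. KRT5, the defining keratin of basal cells (chromosome 12, 52514575 to 52520687), was at 12847.9, 11894.4 and 12809.5 CPM in EV and at 3428.1, 3084.6 and 3418.5 CPM in UTX (log2FC −1.92 ± 0.05, adjusted p = 9.21e-18). Its partner KRT14 was at 1419.2, 1280.0 and 1281.7 CPM against 339.2, 328.8 and 347.4 CPM (log2FC −1.97 ± 0.04). Both pairs of groups were wide apart. Among the 10 basal and activated keratins 6 were lower and 2 higher, with a median log2FC of −0.89 against −0.01 for all genes tested. The other falls were KRT16 (−1.03), KRT6C (−0.96), KRT17 (−0.81) and KRT6A (−0.56), keratins of activated or wounded epithelium, and the rises were KRT15 (0.5) and KRT6B (0.71). KRT6A, KRT6B and KRT6C are near-identical copies, so reads may be split between them and their single values are uncertain.

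Of 13 basal surface and secreted markers 7 were higher and 3 lower (median 0.39). The rises were LY6D (2.62), PROM2 (1.09), the integrins ITGA5 (0.76) and ITGB4 (0.39), P-cadherin, CDH3 (0.7), the hyaluronan receptor CD44 (0.53) and the hemidesmosome collagen COL17A1 (0.24). The falls were S100A2 (−0.8), TRIM29 (−0.22) and SERPINB5 (−0.16, not called with total count scaling). In full medium 10 were higher and 1 lower (median 0.65).

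KRT1 and KRT10, which form the filaments of the first layer above the basal cells in epidermis, fell further still. KRT1 (chromosome 12, 52674736 to 52680407) was at 3991.2, 4193.2 and 4715.8 CPM in EV and at 405.6, 422.9 and 440.6 CPM in UTX, 10.2-fold lower (log2FC −3.35 ± 0.08, adjusted p = 4.24e-18). KRT10 (chromosome 17, 40818117 to 40822595) was at 4257.4, 4323.6 and 5237.1 CPM against 484.5, 510.0 and 520.9 CPM (log2FC −3.19 ± 0.07). KRT13, the suprabasal keratin of mucosal epithelia, was at 6546.3, 6328.1 and 6712.8 CPM against 1667.0, 1601.0 and 1683.0 CPM (log2FC −1.98 ± 0.04). No UTX library reached any EV library in these 3 genes.

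Most luminal, simple and mucosal keratins were higher. KRT8 was at 840.1 ± 31.4 CPM in EV and 1216.7 ± 29.4 CPM in UTX (SD, n = 3; log2FC 0.53 ± 0.04), and its partner KRT18 was at 627.7 ± 31.5 and 865.2 ± 7.9 CPM (log2FC 0.46 ± 0.04). KRT80 rose from 6.0 ± 0.592 to 27.7 ± 0.61 CPM (log2FC 2.21 ± 0.05), and KRT23, KRT4, KRT78 and KRT19 also rose. In total 7 of the 10 luminal, simple and mucosal keratins were higher and 3 lower, with a median of 0.46. The 3 were KRT13, KRT7 and KRT20. KRT7 and KRT20, keratins used as urothelial markers, were low throughout, KRT20 at 2.44 to 2.49 CPM in EV and 0.129 to 0.477 CPM in UTX.

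Desmosomes are the plaques that rivet epithelial cells together, and their cadherins follow the layers of stratified tissue. DSG1, the desmoglein of upper squamous layers, was at 296.3, 304.9 and 339.0 CPM in EV and at 36.9, 41.2 and 41.7 CPM in UTX (log2FC −2.97 ± 0.06, adjusted p = 1.21e-18). DSG2, the desmoglein of simple epithelia, rose from 331.6 to 651.8 CPM (log2FC 0.98). Of 13 desmosome genes 9 were lower and 2 higher, with a median of −0.24. The plaque protein PKP1 (−1.31), the desmoglein DSG3 (−1.14), the desmocollins DSC3 (−0.91) and DSC2 (−0.85) and desmoplakin, DSP (−0.6), were the larger of the other falls, and plakophilin PKP2 (0.23) was the other rise. Tight junction genes leaned upward, with 9 of 16 higher and 4 lower (median 0.25). The scaffold protein TJP3 (2.57), the claudin CLDN4 (0.83), cingulin, CGN (0.78), and occludin, OCLN (0.64), rose, while CLDN1, the claudin of the epidermal barrier, fell (−0.48). E-cadherin, CDH1, rose by 0.66 on the log2 scale, and 6 of 12 cadherins and regulators of the epithelial to mesenchymal transition were higher and 1 lower (median 0.45).

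Many genes of the cornified envelope, the protein shell that replaces the membrane of dying squamous cells, rose in UTX cells while KRT1 and KRT10 fell. SPRR3, a small proline-rich envelope protein, was at 199.5, 201.4 and 217.3 CPM in EV and at 516.8, 580.2 and 546.4 CPM in UTX (log2FC 1.41 ± 0.06, adjusted p = 1.49e-14). Involucrin, IVL, an early envelope scaffold, was at 115.3, 128.5 and 102.8 CPM against 243.1, 262.5 and 256.2 CPM (log2FC 1.14). The libraries of the 2 groups were separated in both genes.

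Cornifelin, CNFN, was at 0.868, 0.487 and 1.2 CPM in EV and at 8.47, 15.0 and 11.1 CPM in UTX (log2FC 3.74 ± 0.24). Corneodesmosin, CDSN, which holds cornified cells together, was at 0.367, 0.209 and 0.227 CPM against 5.85, 9.69 and 7.14 CPM (log2FC 4.8 ± 0.35). UTX_sphere 2 was the highest UTX library and UTX_sphere 1 the lowest in both genes, and all UTX libraries were above all EV libraries. Filaggrin, FLG, which bundles keratin filaments, had the same order of libraries and rose from 11.5 ± 1.31 to 32.4 ± 9.5 CPM.

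Of 27 cornified envelope genes tested 15 were higher and 7 lower, with a median of 1.01, and 14 of the 27 were called at least 2-fold higher, as were 6.09% of all genes tested. Of 14125 protein-coding genes tested 924 were at least 2-fold higher. Suprabasin (SBSN, 1.79), repetin (RPTN, 2.5), LCE3D (4.15) and LCE3E (4.94) were among the rises. At least 1 of LCE3D and LCE3E had a mean under 1 CPM or libraries that were not separated, so the size of these 2 values is uncertain. The falls besides KRT1 and KRT10 were KRTDAP (−0.99), SPRR2D (−0.76), SPRR1B (−0.64), the plakin envoplakin (EVPL, −0.32) and periplakin (PPL, −0.17). Loricrin (LOR), the main protein of the mature envelope, stayed under 1 CPM in both groups and was not called. The SPRR2 genes are near-identical copies, and their single values are uncertain.

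**Figure D1:**
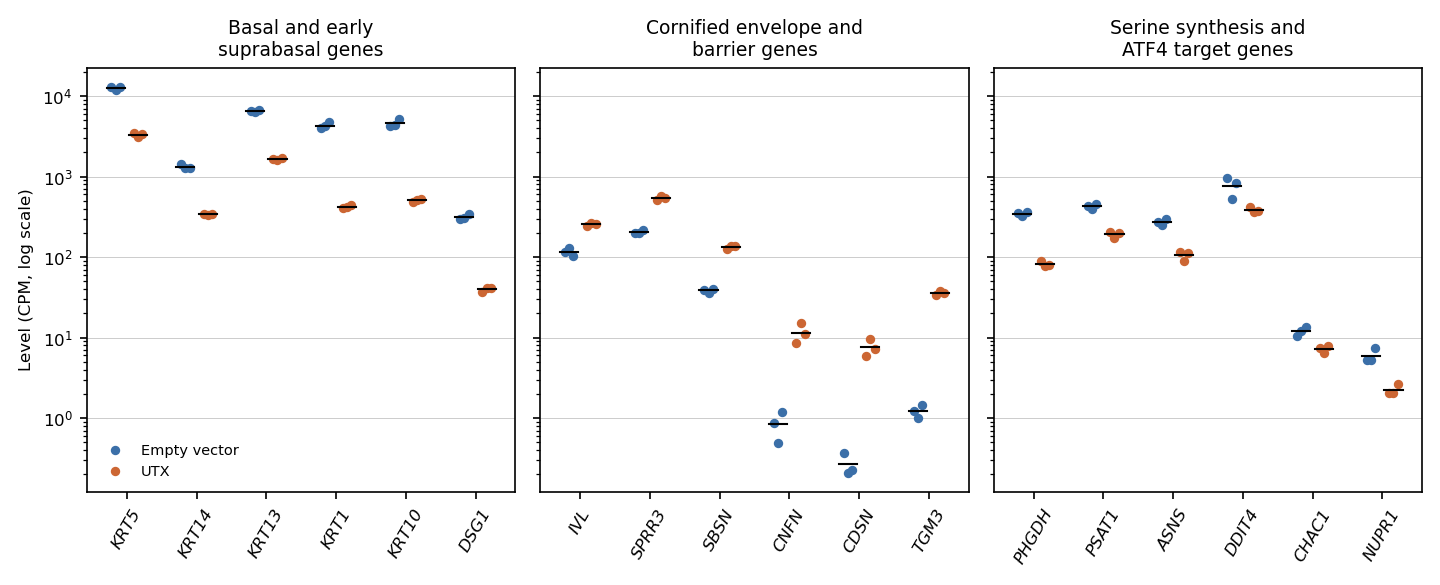
Level in each library (CPM, log axis) for 18 genes in 3 groups; each point is 1 library of EV or UTX in sphere medium and each short line the mean of 3. KRT5, KRT14, KRT13, KRT1, KRT10 and DSG1 were lower in all 3 UTX libraries, the genes of the middle panel were higher in all 3, and those of the right panel were lower in all 3; CPM is not per length, so levels compare within a gene only.

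Enzymes that build the barrier were mostly higher too. TGM3, a transglutaminase that crosslinks envelope proteins (chromosome 20, 2296001 to 2341078), was at 1.24, 1.01 and 1.46 CPM in EV and at 34.2, 38.2 and 35.4 CPM in UTX, 29.1-fold higher (log2FC 4.85 ± 0.11, adjusted p = 4.42e-16). Of 15 transglutaminases and barrier lipid enzymes 12 were higher and 2 lower (median 1.19). CYP4F22, which hydroxylates very long fatty acids for ceramides, rose from 0.971 ± 0.0673 to 9.86 ± 1.26 CPM. Other rises were TGM5 (3.29), the lipoxygenases ALOX12B (3.67) and ALOXE3 (1.19), the elongase ELOVL4 (2.05), TGM2 (1.35), TGM1 (0.53) and the lipid transporter ABCA12 (0.59). The falls were ALOX15B (−1.49) and the ceramide synthase CERS3 (−0.76).

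Kallikrein-related peptidases shed cornified cells, and SPINK5 and cystatin CST6 hold proteases in check. SPINK5 was at 81.8, 84.9 and 99.0 CPM in EV and at 18.7, 16.6 and 20.1 CPM in UTX (log2FC −2.26 ± 0.07), and KLK12 (−1.12), KLK13 (−1.11) and KLK11 (−0.54) also fell. KLK6 rose from 2.64 ± 0.773 to 20.7 ± 1.31 CPM (log2FC 2.96 ± 0.1) and CST6 from 0.248 to 5.59 CPM (4.48 ± 0.22). In this list 7 of 11 members were higher and 4 lower (median 1.05), and with a filter of at least 1 CPM in 3 libraries the rises were 4. Among clade B serpins and elastase inhibitors 7 of 11 were higher and 3 lower (median 0.26). SERPINB13, an inhibitor of cathepsins in squamous cells, was at 467.1, 515.0 and 469.8 CPM in EV and 78.0, 83.1 and 85.9 CPM in UTX (log2FC −2.56 ± 0.06), whereas the protease inhibitor A2ML1 (2.12), SERPINB7 (1.29) and secretory leukocyte protease inhibitor, SLPI (0.87), rose.

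S100 proteins are small calcium-binding proteins, many of them encoded beside the envelope genes on chromosome 1. Of 14, 7 were lower and 4 higher (median −0.1). S100A7 (psoriasin) was at 2.34, 1.57 and 1.75 CPM in EV and at 11.7, 18.3 and 13.3 CPM in UTX (log2FC 2.93 ± 0.2) and S100A12 rose by 1.08. S100A2, a basal cell gene, fell from 1145.6 to 656.7 CPM (−0.8) and S100A4 fell by 1.34 on the log2 scale. S100A8 and S100A9, which together form calprotectin, did not pass the test (0.1 and 0.04).

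Of the uroplakins, plaque proteins of the urothelial surface, 3 rose. UPK1B (chromosome 3, 119173517 to 119205153) was at 147.6, 148.1 and 140.7 CPM in EV and at 369.2, 402.3 and 381.1 CPM in UTX (log2FC 1.4 ± 0.04, adjusted p = 9.38e-18). UPK3B was at 112.7, 111.0 and 102.5 CPM against 254.3, 279.1 and 268.9 CPM (1.3 ± 0.06), and UPK2 at 2.1, 2.47 and 2.23 CPM against 7.76, 8.45 and 9.89 CPM (1.94 ± 0.11). The 2 groups did not overlap in any of the 3. UPK1A had a mean under 1 CPM in both groups and was not called (adjusted p = 0.064), although DESeq2 and 4 other alternative settings called it lower, among them leaving out EV_sphere 1, EV_sphere 3 or UTX_sphere 2. The UTX libraries were thus higher in 3 of 4 uroplakins tested, with a list median of 1.35.

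Most surface glycoproteins of the list rose. CEACAM6, a cell adhesion glycoprotein of mucosal surfaces, was at 3.07, 3.17 and 2.82 CPM in EV and at 44.5, 45.9 and 43.2 CPM in UTX (log2FC 3.88 ± 0.08). PSCA, the prostate stem cell antigen that normal urothelium makes, rose from 1.77 ± 0.632 to 17.7 ± 1.08 CPM, and the tetraspanin TSPAN1 from 5.05 to 65.1 CPM. The membrane mucin MUC16 rose from 22.6 to 61.8 CPM and MUC20 from 0.238 to 4.64 CPM. In this list 9 of 14 were higher and 3 lower (median 0.6), the falls being MUC4 (−1.78), MUC15 (−0.8) and NECTIN4 (−0.29).

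Transcription factors of the urothelial program did not move together. Of 14 luminal factors 5 were higher and 6 lower, with a median of 0.01. ELF3, an epithelial ETS factor, rose from 4.57 to 17.4 CPM (log2FC 1.93), FOXA1 from 4.57 to 12.1 CPM (1.4), and IRF1 (0.86) and TBX3 (0.74) rose too. GATA3 (−0.36), KLF5 (−0.75), KLF4 (−0.79) and GRHL3 (−0.52) fell, and PPARG was at 42.9 CPM in both groups. Of 12 basal and stratified factors 3 were higher and 4 lower (median 0.01). TP63, the main factor of basal squamous cells, was at 380.1, 390.3 and 390.5 CPM in EV and at 237.0, 228.0 and 224.8 CPM in UTX (−0.75). SOX2 was at 5.71, 6.68 and 4.56 CPM against 0.557, 0.256 and 0.344 CPM (−3.85 ± 0.31, adjusted p = 8.42e-10), and ZNF750, a regulator of epidermal differentiation, fell by 0.78 on the log2 scale. SOX9 (1.08), HES2 (0.77) and STAT3 (0.35) rose.

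Genes of serine synthesis and the amino acid response were lower in UTX cells. In this response the factor ATF4, made when amino acids run short or the endoplasmic reticulum is stressed, switches on amino acid synthesis, transport and tRNA charging. Many of its targets carry a composite element bound by ATF4 together with a C/EBP factor. Of the 32 list members 28 were lower and none higher, with a median of −0.55, against 25.6% lower and −0.01 over all genes tested. Among protein-coding genes tested 31.4% were lower, and among genes of at least 10 CPM 3870 of 9593. By total count scaling 3 members were higher, and without EV_sphere 3 there was 1.

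PHGDH, the first enzyme of serine synthesis (chromosome 1, 119648411 to 119744226), was at 350.7, 320.0 and 362.4 CPM in EV and at 90.6, 76.9 and 80.7 CPM in UTX (log2FC −2.06 ± 0.06, adjusted p = 1.33e-17). PSAT1, the next enzyme, was at 431.0, 392.3 and 452.4 CPM against 205.5, 171.2 and 196.3 CPM (−1.15), and PSPH, the last, fell by 0.76. ASNS, asparagine synthetase, was at 270.0, 251.6 and 297.4 CPM against 116.0, 90.3 and 111.3 CPM (−1.37 ± 0.07). The UTX libraries lay below the EV libraries throughout, and in each of these genes library 2 was the lowest of its group.

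The folate enzymes that carry serine's carbon were lower too, with SHMT1 at −0.8, SHMT2 at −0.61, MTHFD1L at −0.55, MTHFD2 at −0.52 and ALDH1L2, at 1.02 against 0.238 CPM, at −2.09. So were the tRNA synthetases GARS1 (−0.68), SARS1 (−0.54), WARS1 (−0.53) and AARS1 (−0.44), and the transporters SLC6A9 (−1.23), SLC7A1 (−0.61), SLC3A2 (−0.39) and SLC7A5 (−0.33). Stress response genes fell as well. NUPR1 was at 5.27, 5.22 and 7.41 CPM in EV and 2.03, 2.05 and 2.67 CPM in UTX (−1.41), CHAC1, a glutathione-degrading enzyme, at 10.6, 12 and 13.4 CPM against 7.52, 6.4 and 7.79 CPM (−0.73), and TRIB3 fell by 0.72. DDIT4, an inhibitor of mTOR complex 1, varied more, at 946.6, 532.9 and 839.5 CPM in EV and 418.1, 359.1 and 371.5 CPM in UTX (−1.01), with no overlap. ATF4 RNA itself was at 570.3 and 447.4 CPM (−0.35), and the cystine transporter SLC7A11 (0.11, adjusted p = 0.155), SLC38A2, ATF5 and CEBPB did not pass.

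The composite element of ATF4 and C/EBP, TGATGNAA on either strand, lay between 250 bases before and 50 bases after the RefSeq start in 6 of the 27 list members with a promoter sequence (22.2%). The same letters were in 3.67% of all 27305 promoters of that length and in 1.8% of the 11224 promoters of protein-coding genes tested. The 6 were ASNS, CHAC1, SLC7A1, MTHFD1L, AARS1 and SLC3A2, all lower with UTX. The 250 bases before the start are shown for 3 of them that differ in the place and strand of the match, from RefSeq on GRCh38.p14, 5′ to 3′ along the gene, with the match in capitals. ASNS (chr7:97872409-97872658) is on the minus strand and its match begins 68 bases before the start. CHAC1 (chr15:40953221-40953470) and MTHFD1L (chr6:150866236-150866485) are on the plus strand, with matches that begin 209 and 129 bases before the start. In CHAC1 the capitals are the element read on the opposite strand.
ASNS: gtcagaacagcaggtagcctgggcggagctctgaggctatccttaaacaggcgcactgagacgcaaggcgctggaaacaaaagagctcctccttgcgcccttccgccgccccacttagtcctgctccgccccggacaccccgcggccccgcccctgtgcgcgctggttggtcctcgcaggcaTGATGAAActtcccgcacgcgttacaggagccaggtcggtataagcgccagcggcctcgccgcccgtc
CHAC1: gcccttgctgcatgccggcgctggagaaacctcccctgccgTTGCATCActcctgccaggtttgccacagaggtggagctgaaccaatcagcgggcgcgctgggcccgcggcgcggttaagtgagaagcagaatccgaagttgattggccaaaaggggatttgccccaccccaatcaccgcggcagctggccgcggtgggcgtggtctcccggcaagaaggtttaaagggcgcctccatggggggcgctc
MTHFD1L: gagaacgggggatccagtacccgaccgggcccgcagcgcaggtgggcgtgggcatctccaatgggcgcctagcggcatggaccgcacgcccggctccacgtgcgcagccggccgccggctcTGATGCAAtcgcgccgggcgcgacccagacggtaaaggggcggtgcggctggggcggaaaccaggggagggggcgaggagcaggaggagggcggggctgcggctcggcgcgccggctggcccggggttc
A match of letters is a description and does not show that a factor binds there. The list was chosen to hold ATF4 targets, many of which carry the composite element, so its share there is not an independent result. That all 6 genes with it were lower is to be read beside the 28 of 32 list members that were lower. The AP-1 element TGAGTCA was in 11.1% of the list's promoters, against 4.92% of all and 3.32% of those of protein-coding genes tested. The E-box CACGTG was in 11.1%, against 7.43% and 9.81%.

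**Figure D2:**
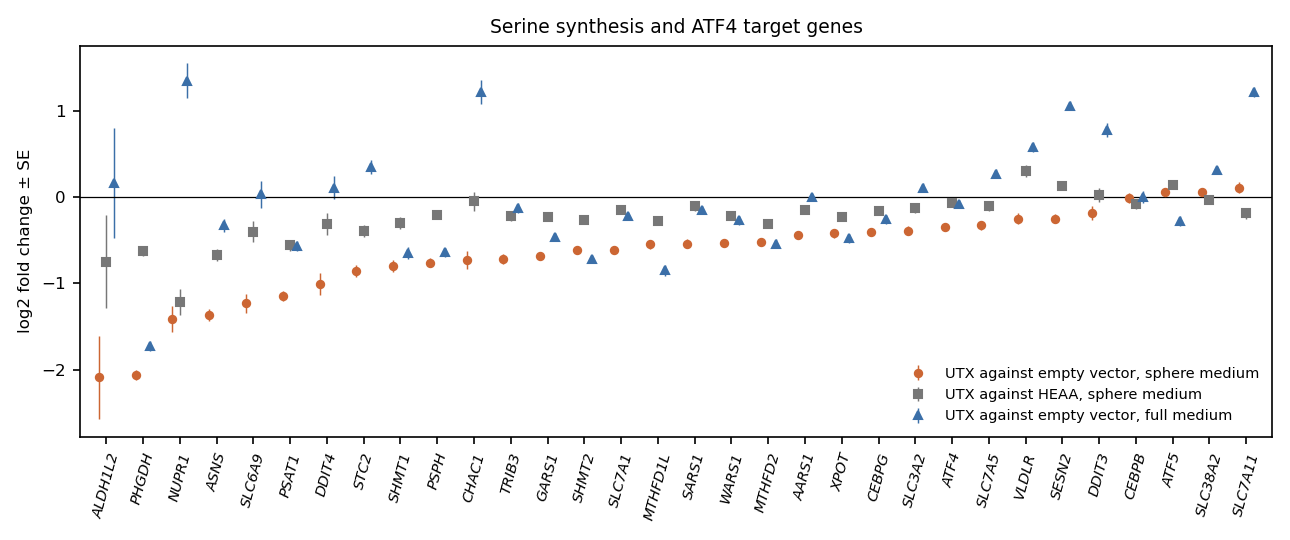
Log2 fold change with SE for the 32 genes of serine synthesis and the amino acid response; orange circles are UTX against EV in sphere medium, grey squares UTX against HEAA in sphere medium and blue triangles UTX against EV in full medium. In sphere medium 28 of 32 circles are called lower, while the triangles lie on both sides of 0 (9 higher, 15 lower).

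Among other metabolic lists, cholesterol synthesis genes were lower in 16 of 25 and higher in 2 (median −0.35). Lanosterol synthase LSS (−0.82), INSIG1 (−0.81), a regulator of sterol synthesis, and the thiolase ACAT2 (−0.64) were among the falls. The 2 rises were TM7SF2 (0.69) and MSMO1 (0.1), and the call of MSMO1 was lost on leaving out any 1 of the 6 libraries. With total count scaling 5 members were higher. The sterol regulatory element TCACNCCAC was in 1 of 18 promoters of the list (5.56%), against 1.15% of all and 1.18% of those of protein-coding genes tested. That promoter belongs to SREBF2, which was not called (−0.03).

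Fatty acid synthesis genes were split, with 8 of 18 higher and 7 lower (median 0.05). The desaturase SCD fell from 2457.1 to 1538.0 CPM (−0.68), SREBF1, the factor that drives these genes, fell by 0.65 and ATP citrate lyase, ACLY, by 0.48, while the acyl-CoA synthetase ACSL5 rose by 1.24. Hypoxia and glycolysis genes were lower in 15 of 30 and higher in 3 (median −0.17), and with total count scaling 9 were higher. Glucose transporters SLC2A3 (−1.69) and SLC2A1 (−0.5) and the aldolase ALDOC (−1.11) fell, and the lactate exporter SLC16A3 rose (0.85). Antioxidant and xenobiotic genes had 8 of 24 higher and 11 lower (median −0.05), with CYP1B1 (−1.87), AKR1C2 (−1.3) and the glutathione synthesis subunit GCLC (−0.87) the larger falls and heme oxygenase HMOX1 (1.14) the largest rise. Retinoid genes had 9 of 15 higher and 4 lower (median 0.4), with TGM2 and the binding protein CRABP2 (1.4) among the rises, in a medium whose supplement lacked vitamin A.

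Of 19 integrins and laminins, which anchor epithelia to their basement membrane, 13 were higher and 2 lower (median 0.59). The laminin chain gene LAMA3 rose from 139.0 to 424.6 CPM (1.61) and LAMB3 from 175.2 to 418.8 CPM (1.26). LAMA3 lies in a stretch of chromosome 18 (20 to 25 Mb) in which 14 of 17 genes were higher and 0 lower (median 0.42). ITGB6, which pairs with ITGAV to activate TGF-beta, rose by 1.58, ITGB1 by 0.89 and ITGA3, a laminin receptor subunit, by 0.73, and the falls were ITGB8 (−0.42) and LAMB1 (−0.16, not called with total count scaling).

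Secreted matrix proteins were split by member, with 16 of 27 matricellular and crosslinking genes higher and 4 lower (median 0.72). TIMP2, a metalloproteinase inhibitor, was at 9.15, 8.35 and 7.19 CPM in EV and at 61.4, 66.2 and 60.7 CPM in UTX (2.93 ± 0.06, adjusted p = 4.66e-19), and SPOCK1 (2.64), tenascin C (TNC, 2.17), PLAUR (1.37) and MMP14 (1.04) rose. The 4 falls were SPARC, MME and LOX, given above, and fibrillin FBN2 (−1.24). Fibronectin, FN1, rose from 15.9 to 56.4 CPM (1.83) and MMP2 from 21.2 to 77.2 CPM (1.87), while vimentin (VIM), ZEB1 and ZEB2 stayed under 1 CPM and were not called. Collagens had 5 of 17 members higher and 5 lower: COL12A1 fell from 172.3 to 45.2 CPM (−1.93) and COL6A1 by 1.19, and COL1A1, which carries most of the fibroblast marker sum given above, rose from 11.5 to 21.5 CPM (0.9).

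TGF-beta and YAP targets were mostly higher, 14 of 19 with 2 lower (median 0.64). Thrombospondin, THBS1, was at 12.7, 11.1 and 8.45 CPM in EV and at 63.0, 77.2 and 61.8 CPM in UTX (2.65). The receptor kinase AXL (2.08), PMEPA1 (1.99), a feedback inhibitor of TGF-beta signalling, CRIM1 (1.65) and the type I receptor TGFBR1 (0.93) rose. The falls were CCN1 (−0.89) and AJUBA (−0.38). The actin-related list had 10 of 23 higher and 6 lower (median 0.17), with filamin FLNA and actinin ACTN1 (0.87) higher and FHL1 (−1.55), caldesmon CALD1 (−0.57) and tropomyosin TPM1 (−0.44) lower.

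FGFR3, the receptor that is often mutated in bladder cancer, was at 260.6, 258.5 and 245.5 CPM in EV and at 158.1, 161.2 and 159.2 CPM in UTX (log2FC −0.68 ± 0.04), with no overlap. FGFR4 (−1.41) and FGFBP1, which carries FGF2 to its receptors (−0.95, from 1912.9 to 992.9 CPM), also fell, and FGFR2 (0.85), the syndecans SDC4 (0.83) and SDC1 (0.64) and FGFRL1 (0.26) rose. Of 12 receptors and partners 5 were higher and 3 lower (median 0.19). FGFR2 lies in a run of neighbouring genes on chromosome 10 that were higher together, described below. Genes that FGFR and MAPK signalling induces were divided, with 12 of 25 higher and 6 lower (median 0.13). Cyclin D1, CCND1 (1.39), the potassium channel KCNN4 (1.78) and the phosphatases DUSP4 (1.17) and DUSP5 (0.99) rose, whereas SPRY1 (−1.35), SPRY2 (−0.46), ETV4 (−0.53), ETV5 (−0.36) and DUSP6 (−0.26), inhibitors and factors induced by the pathway, fell.

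Ligands of the EGF receptor differed by member. TGFA rose from 33.7 to 106.4 CPM (1.66), HBEGF by 0.96 and EREG by 0.78, and EPGN fell from 6.86 to 0.6 CPM (−3.51), while EGFR itself fell by 0.23 on the log2 scale. The list had 7 of 15 members higher and 3 lower (median −0.08), and 5 lower without UTX_sphere 1. In the IGF axis 4 of 12 were higher and 6 lower (median −0.12), IGF2 and IGFBP6 being the largest falls by level and fold among members with more than 3 counts in each group. IGFBP3 was at 531.8, 832.0 and 279.0 CPM in EV and 754.2, 1332.1 and 786.5 CPM in UTX (0.81 ± 0.23, adjusted p = 0.00624). Its groups overlapped, and without UTX_sphere 2 the call was lost (0.49, adjusted p = 0.0863).

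WNT pathway genes were higher in 14 of 23 and lower in 4 (median 0.21), with WNT10A from 6.7 to 25.5 CPM (1.93), the antagonist DKK1 (1.61), the receptor-degrading ligase RNF43 (1.13) and WNT7A (0.91) higher and WNT6 lower (−1.49). In the Notch pathway 4 of 16 were higher and 7 lower (median −0.25): the target genes HEY1 (−0.9), NRARP (−0.8) and HES1 (−0.42) fell, and the ligand JAG2 (0.74) and the glycosyltransferase LFNG (1.04) rose. BMP and ID genes had 7 of 16 higher and 3 lower (median 0.23), with follistatin, FST, an activin and BMP antagonist, down from 88.5 to 19.3 CPM (−2.2) and ID3 up (1.1). The AP-1 list had 2 of 10 higher and 2 lower (median −0.05): FOSL1 (0.72) and FOSB (1.01) rose, and FOS (−0.89) was among the falls.

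Cytokine genes were higher in 11 of 22 and lower in 4 (median 0.63). The IL-1 receptor antagonist IL1RN rose from 3.5 to 21.8 CPM (2.65), IL1B from 55.7 to 117.2 CPM (1.07), IL36RN by 1.33 and the chemokine CXCL1 by 0.97, and IL18 (−0.7) and SOD2 (−0.55) fell. Of 28 interferon-stimulated genes 9 were higher and 5 lower (median 0.17), the largest fall being OAS2, a sensor of double-stranded RNA, from 100.7 to 37.9 CPM (−1.41). Antigen presentation genes had 5 of 17 higher and 1 lower (median 0.11), with B2M (0.5) among the rises, and 2 were lower without EV_sphere 3 or UTX_sphere 2.

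Cell cycle lists moved by small amounts. DNA replication genes were lower in 20 of 26 and higher in 1 (median −0.22), mitosis genes lower in 18 of 26 and higher in 3 (median −0.18). CDT1 (−0.52), GINS2 (−0.49) and MCM7 (−0.47), which license or open origins, had the largest falls among the first, and KIF20A (−0.49), AURKB (−0.45) and CDC20 (−0.43) among the second. RRM2 (0.22) was the replication gene that rose, and BUB3 (0.99), AURKA (0.27) and TPX2 (0.15) the mitosis genes. TPX2 was not called without EV_sphere 2 (0.1) or UTX_sphere 1 (0.11). BUB3 lies in the chromosome 10 run and PLK1 (−0.22) in a run on chromosome 16 that is described below. With total count scaling 13 replication and 10 mitosis genes were lower, so these counts depended on the scaling. G1 cyclins and CDK inhibitors had 5 of 19 higher and 7 lower (median −0.09). The CDK inhibitor CDKN1A (p21) was at 97.3, 96.3 and 87.5 CPM in EV and at 248.3, 270.1 and 251.5 CPM in UTX (1.45 ± 0.05), and CDKN2B (−0.67), CDKN1B (−0.4) and CDK4 (−0.49) fell.

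All 60 cytosolic ribosomal protein genes were lower, with a median of −0.5, and none was higher. Their sum was 64343.8 to 68029.5 CPM in EV and 46766.5 to 47202.7 CPM in UTX. All genes with RPL or RPS symbols, a set drawn by symbol and not by this list, took 7.006% to 7.245% of EV counts. In UTX libraries that share was 5.387% to 5.462%. Elongation factor EEF1A1 was at 11538.5, 11357.5 and 12013.9 CPM in EV and 7874.0, 7756.9 and 7695.1 CPM in UTX (−0.58 ± 0.04). Of the 13 mitochondrially encoded RNAs 4 were higher and none lower (median 0.12), and with total count scaling 9 were higher.

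Genes of the machinery around UTX changed little besides KDM6A. Among 10 members of the KMT2C and KMT2D complex NCOA6 (0.11) was called higher with KDM6A, and PAXIP1 (−0.47), WDR5 (−0.32) and KMT2C (−0.18) lower. The call of NCOA6 was lost without EV_sphere 2 (0.08), UTX_sphere 1 (0.08) or UTX_sphere 3 (0.1), and that of KMT2C with total count scaling (−0.07). Of 12 genes of Polycomb repressive complex 2 and its opponent KDM6B, EZH2, the methyltransferase, fell from 80.5 to 60.4 CPM (−0.41), MTF2 (−0.18) and RBBP7 (−0.12) fell, and EZH1 (0.45) and KDM6B (0.2) rose. RBBP7 was not called without UTX_sphere 2 or UTX_sphere 3 (−0.1 in both), and with total count scaling neither it (−0.01) nor MTF2 (−0.07) was. HOX genes, a classic target of that complex, had 3 of 24 higher and 4 lower (median −0.06), with HOXD8 (−0.78) and HOXD10 (0.4) among them, and 5 were higher without EV_sphere 1.

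Sphere culture is used to enrich cells with stem cell properties. Of 11 genes used as such markers 4 were higher and 2 lower (median 0.05). The drug exporter ABCG2 rose from 3.73 to 20.3 CPM (2.44), the ectonucleotidase NT5E (CD73) from 57.6 to 251.1 CPM (2.12), ALCAM by 0.63 and EPAS1 by 0.33, while LGR4 (−0.26) and BMI1 (−0.16) fell. The number lower was 1 without EV_sphere 2, EV_sphere 3 or UTX_sphere 1. POU5F1 and NANOG did not pass the test. Guidance genes had 11 of 23 members higher and 7 lower (median 0.19), with SEMA3B (3.89), the adhesion gene SLITRK6 (2.12) and neuropilin NRP1 (2.1) higher and TENM2 and NRP2 (−1.6) lower.

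**Figure D3:**
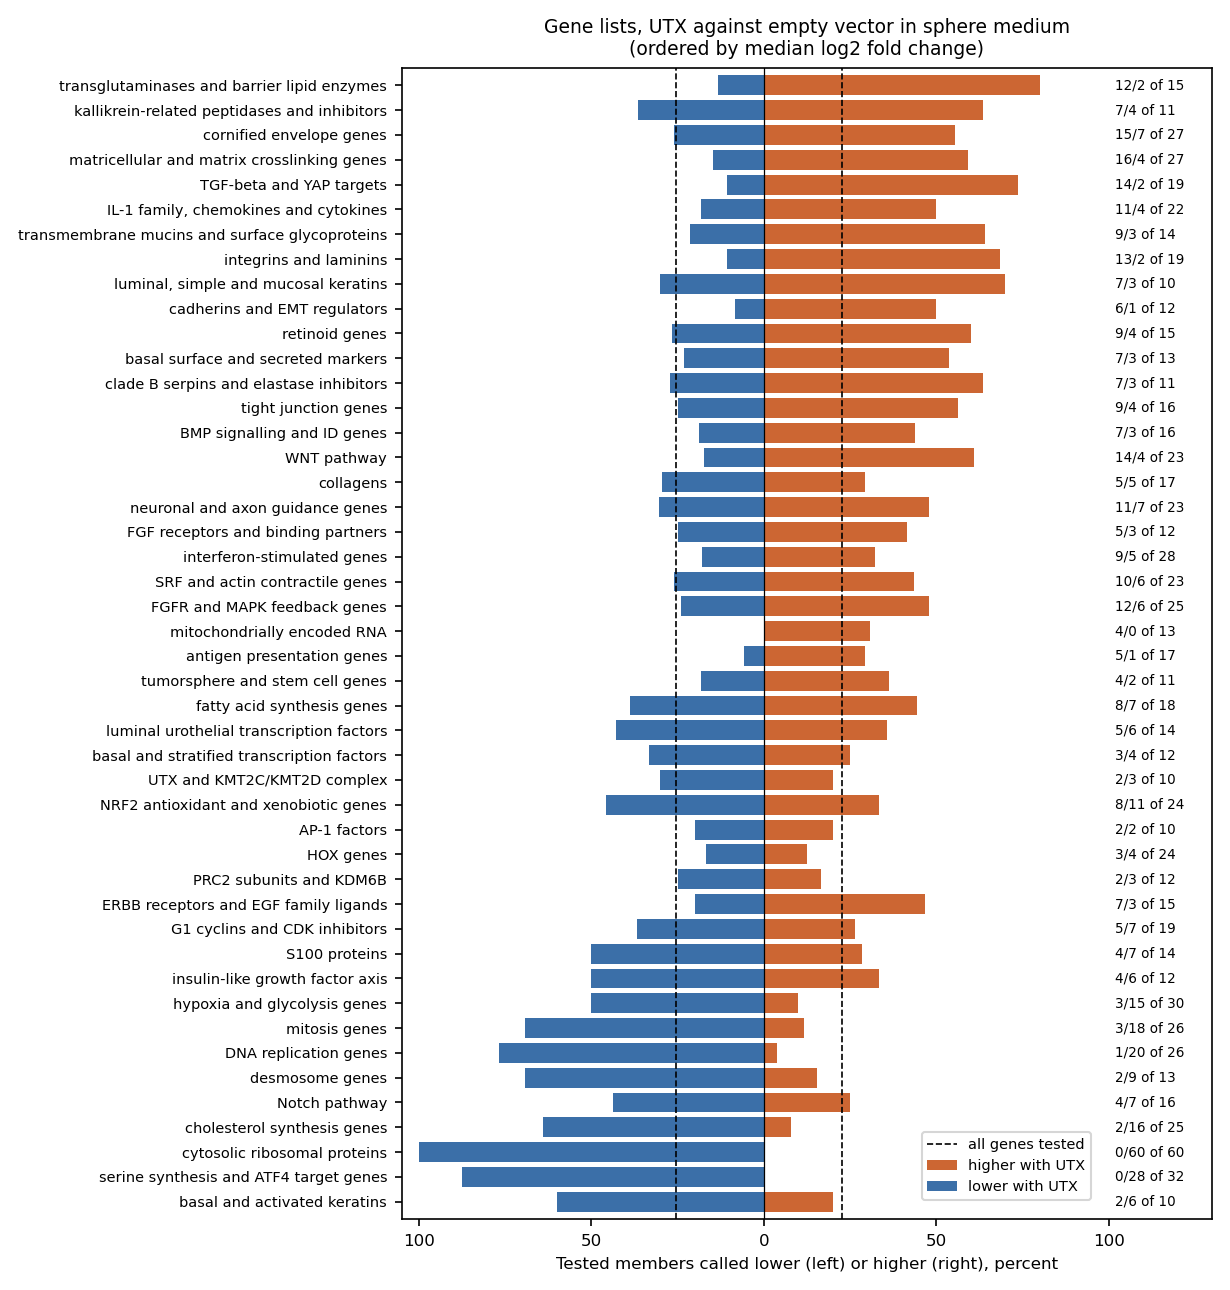
Share of each list's tested members (percent) called higher or lower with UTX in sphere medium, as bars to the right and left, for lists with at least 10 members tested; the dashed lines are the shares of all genes tested, 22.8% higher and 25.6% lower. Among protein-coding genes tested, which have no line here, 27.6% were higher and 31.4% lower. Serine and amino acid response genes, ribosomal proteins and replication genes extend mostly to the lower side, and barrier enzymes, TGF-beta and YAP targets and integrins and laminins mostly to the higher side.

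The same vectors in full medium, in libraries that share none with the comparison above, were set beside it. There 5583 genes (28.4%) were higher and 5736 (29.2%) lower, 57.7% in either direction. Of the 4477 genes higher in sphere medium 2702 were also higher in full medium, which is 60.4% of the first list and 48.4% of the second, and 575 (12.8%) were lower there. Of the 5027 genes lower in sphere medium 3314 were also lower in full medium, 65.9% of the first list and 57.8% of the second, and 484 (9.63%) were higher there. The difference between UTX and EV libraries changed with the medium, by the interaction term, for 37.3% of all genes. The value in sphere medium was the larger for 21.1% and the smaller for 16.2%.

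KRT5, KRT14, KRT13, KRT1 and KRT10 were lower and 3 uroplakins higher with UTX in both media. In full medium KRT5 fell by 3.77 on the log2 scale, KRT13 by 1.18 and KRT14 by 0.67, while KRT16 (1.27) and KRT17 (0.32) rose there. The rises of UPK1B (0.48), UPK2 (0.9) and UPK3B (0.83) there were smaller than in sphere medium, and the difference passed for all 3. GJA5 (4.42), SPARC (−6.35), MME (−5.0) and TENM2 (−3.87) kept their direction with effects of several log2 units.

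Cornified envelope genes differed between the media. In full medium 3 of the 27 were higher and 12 lower (median −1.02), and the interaction was positive for 15 and negative for 3. Some members had few counts in full medium, such as CDSN (5 over EV_full and 2 over UTX_full) and KRTDAP (153 and 3). The median in full medium therefore rests partly on uncertain values. SPRR3 was at 4.12 ± 0.592 CPM in EV_full and 0.387 ± 0.0739 CPM in UTX_full (log2FC −3.35 ± 0.2), against its rise of 1.41 in sphere medium, and the difference of 4.76 ± 0.2 had an adjusted p of 1.13e-13. IVL fell by 0.43 there. TGM3 was at 0.0 CPM in EV_full and 0.00969 CPM in UTX_full, so that its rise was not measurable in full medium. Levels in EV cells differed between media as well, with FLG at 1.13 CPM in EV_full and 11.5 in EV_sphere, and SBSN at 0.106 and 38.6. Clade B serpins also differed, with 1 of 11 higher and 8 lower in full medium.

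The lists of the amino acid response and cytokines moved apart as well. Of 32 serine and amino acid response genes 9 were higher and 15 lower in full medium (median −0.11), and 23 had a negative interaction and 2 a positive one. PHGDH fell in both media (−1.73 in full medium), ASNS fell by 0.33, and NUPR1 (1.35), CHAC1 (1.22) and SESN2 (1.06) rose in full medium. Cytokine genes were higher in 2 of 22 and lower in 11 there (median −0.22). All 26 replication genes were lower in full medium (median −0.88), against 20 lower and 1 higher (RRM2) in sphere medium, and the interaction was positive for all 26. All 60 ribosomal protein genes were lower in full medium as well (median −0.56).

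**Figure D4:**
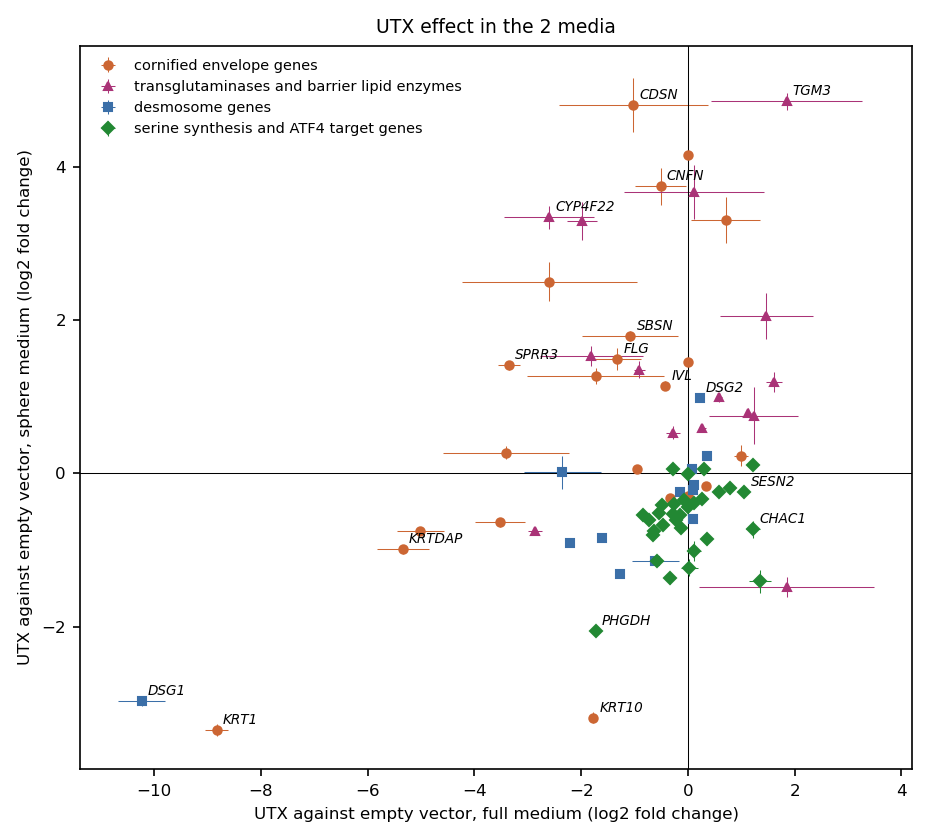
Log2 fold change of UTX against EV with SE in full medium and in sphere medium for members of 4 lists with a mean of at least 1 CPM; each point is a gene and labels mark some of them. Cornified envelope genes spread over both signs, with a median of 1.01 in sphere medium and −1.02 in full medium over all members tested, and 28 of 32 serine and amino acid response genes are called lower in sphere medium; values for genes with few counts in full medium, such as DSG1, depend on the prior count.

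The HEAA libraries come from another vector line in the same medium. Differences between UTX and HEAA libraries may come from the proteins or from the lines, and these cannot be told apart. The same holds for differences of UTX or HEAA libraries from EV libraries. The changes H1146A and E1148A are used as a catalytically inactive form. UTX was above HEAA in 1742 genes (8.87%) and below it in 2189 (11.2%), 20.0% in either direction, and without UTX_sphere 2 it was above in 998. HEAA was itself above EV in 19.9% and below EV in 21.5% of genes. UTX against HEAA shares the UTX libraries with UTX against EV and the HEAA libraries with HEAA against EV, so the values are only set side by side. Genes with no call between UTX and HEAA are not shown to respond alike. KDM6A itself was lower in UTX than in HEAA libraries (log2FC −0.13, adjusted p = 0.0139).

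KRT1 was at 4300.1 CPM in EV, 852.0 in HEAA and 423.0 in UTX, with a log2FC of −1.01 ± 0.08 for UTX against HEAA. DSG1 was at 313.4, 89.2 and 39.9 CPM in the same order (UTX against HEAA −1.16 ± 0.06), and KRT5 was also lower in UTX than in HEAA (−0.86). The largest shifts below HEAA were in MME (−2.07), FHL1 (−1.65), SPARC (−1.45), the WNT antagonist NKD2 (−1.43), TENM2 (−1.3) and IGFBP6 (−1.24). FHL1, a LIM-domain protein of muscle and epithelium, was at 7.87 ± 0.368 CPM in EV, 8.46 ± 0.699 in HEAA and 2.69 ± 0.379 in UTX.

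MUC16 was the largest shift above HEAA. It was at 21.5, 28.0 and 18.2 CPM in EV and 63.3, 58.7 and 63.4 CPM in UTX, and at 21.9 ± 1.77 CPM in HEAA (UTX against HEAA 1.5 ± 0.12, adjusted p = 1.48e-08). The HEAA mean lay within the range of the EV libraries, and all UTX libraries were above it. GJA5 (1.34), IGFBP3 (1.21), IFITM10 (1.0), the receptor GPRC5A (0.89) and ADPRHL1 (0.86) followed, and UPK2 (0.72), UPK1B (0.4) and UPK3B (0.43) were above HEAA as well.

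Most of the envelope genes described above were not called between UTX and HEAA. TGM3 (−0.04), CNFN (0.02), CDSN (−0.12), SPRR3 (−0.12) and IVL (0.08) did not pass the test between UTX and HEAA, and in the cornified envelope list UTX was above HEAA in 1 of 27 and below it in 11. Serine and amino acid response genes were below HEAA in 19 of 32 and above in 1, while HEAA was below EV in 27 and above in 1 (median −0.36). Mitosis genes were below HEAA in 25 of 26 and none above, with log2FC of −0.3 to −0.15 among those called. Ribosomal protein genes were below HEAA in 4 of 60, with HEAA below EV in 59. Integrins and laminins were above HEAA in 9 of 19 and below in 1.

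Some differences followed the position of genes on chromosomes. These runs were chosen after the values were seen. Over 439 windows of 5 Mb, each with at least 8 protein-coding genes of a mean of at least 5 CPM, the window medians had a median of −0.05 and a range of −0.4 to 0.96. The highest was on chromosome 10. The next highest, 0.51, was on chromosome 8 (40 to 45 Mb, 15 of 19 genes higher and 2 lower). On chromosome 18 (20 to 25 Mb) the median was 0.42, with 14 of 17 higher and 0 lower. In all, 14 windows had a median above 0.3 in size, of either sign. Smaller shifts ran over longer stretches. The chromosome 20 windows from 30 to 65 Mb had medians of 0.18 to 0.33. Their medians were 0.17 to 0.23 in full medium and 0.19 to 0.26 in HEAA against EV. Those of chromosome 3 from 100 to 200 Mb had medians of 0.01 to 0.31. PI3 lies in the first stretch and UPK1B in the second. From WDR11 to CTBP2 (chromosome 10, 120851175 to 125161170 on GRCh38) all 20 such genes were higher with UTX, by 0.47 to 3.06 and with a median of 0.96. The 8 genes before the run had a median of 0.01 and the 8 after it −0.07.

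OAT, a mitochondrial ornithine enzyme in that run, rose from 6.78 to 56.4 CPM (3.06), the centrosomal TACC2 from 30.5 to 143.0 CPM (2.23), the sulfotransferase CHST15 from 17.9 to 68.2 CPM (1.92) and BUB3 from 164.0 to 326.0 CPM. The run was higher in full medium too (median 1.12) and in HEAA against EV (1.02), and 4 of its genes were below HEAA in UTX and none above (median −0.04). DNA repair gene MGMT (1.69) and the glutaredoxin GLRX3 (1.87) lie further along that arm.

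On chromosome 16, 29 genes from THUMPD1 to ZKSCAN2 (20702816 to 25257931) had a median of −0.5, with 24 lower and 2 higher. There HEAA against EV had a median of −0.01, with 8 genes higher and 6 lower, and UTX against HEAA had a median of −0.55. The HEAA libraries were thus near EV by the median, while single genes differed in either direction. The median of UTX against EV in full medium was −0.51. UQCRC2, a subunit of respiratory complex III, was at 613.0 CPM in EV and 281.0 CPM in UTX (−1.12). A neighbouring run of 16 genes from NSMCE1 to SPNS1 (27224991 to 28984548) had a median of 0.66, with 14 higher, of 0.5 in full medium and of 0.58 in HEAA against EV. DNA copy number was not tested. Without the genes of the 3 runs 4422 genes were higher and 4990 lower. Genes of the other windows with shifted medians stay in these counts, and how far position accounts for calls outside the runs was not tested.

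**Figure D5:**
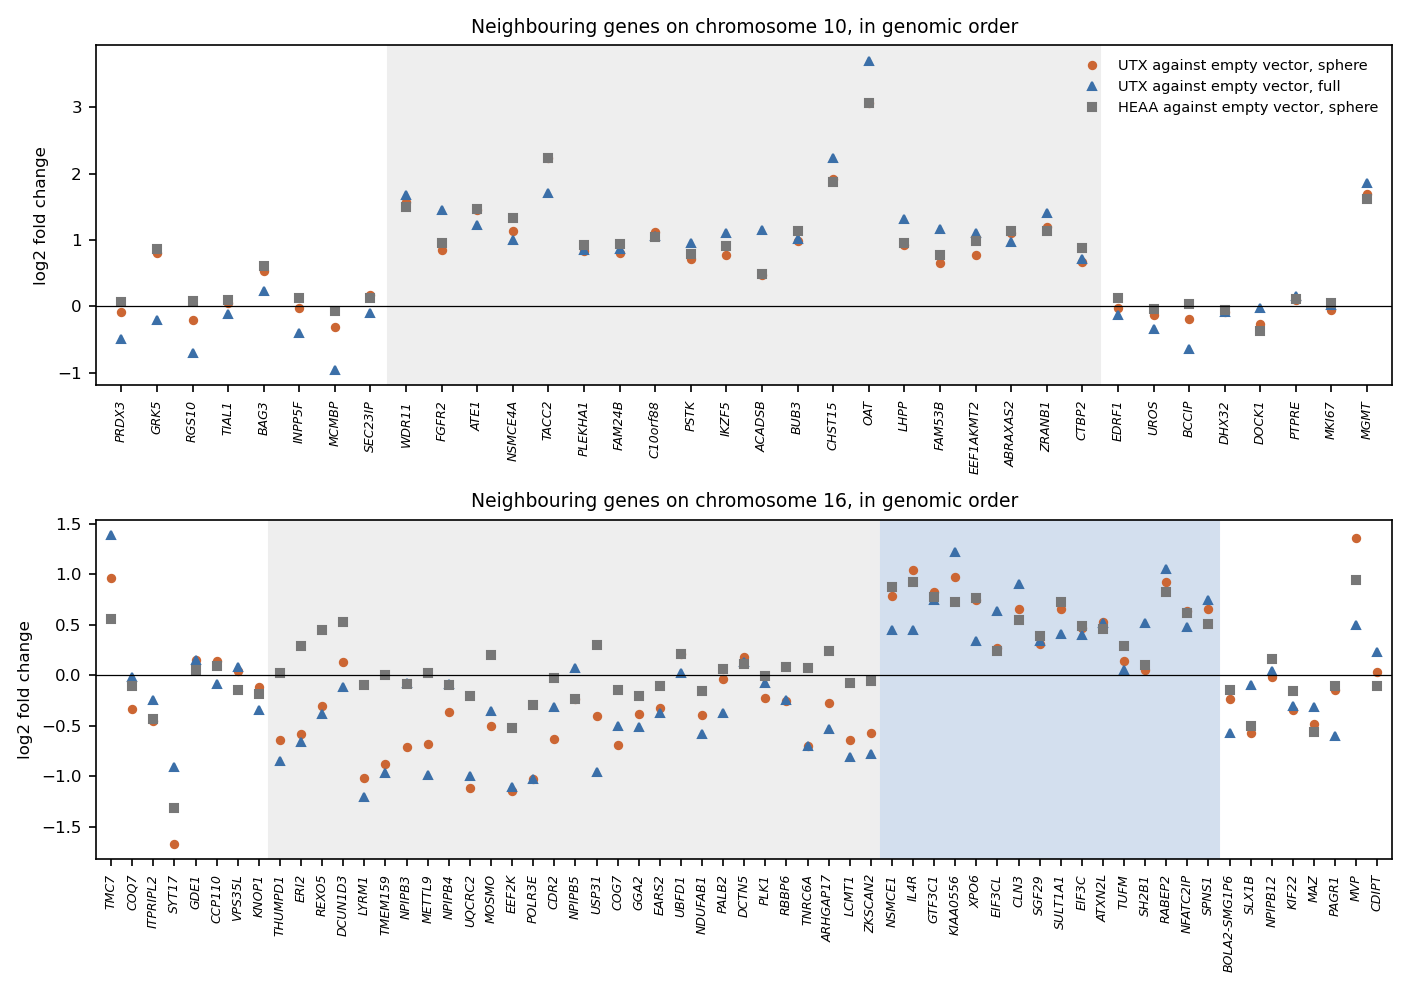
Log2 fold change for neighbouring genes on chromosome 10 and chromosome 16 in genomic order, with orange circles for UTX against EV in sphere medium, blue triangles for the same in full medium and grey squares for HEAA against EV in sphere medium; each place on the axis is a protein-coding gene with a mean of at least 5 CPM and shading marks the runs. The 20 genes of the chromosome 10 run lie above 0 in sphere medium, and on chromosome 16 a run with a median of −0.5 is followed by one with a median of 0.66.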

How the data were processed

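RNA of UMUC1 cells was extracted with Qiagen RNeasy and made into libraries with Illumina TruSeq, per the labels' protocols. The authors deposited 1 estimated count per gene and library (18 libraries), in whole numbers that sum to each library's own depth, 23749352 to 40111234. Salmon 0.8, DESeq2, hg19 and GRCh37 are named in the submitters' processing notes. How transcripts were summed to genes, and the annotation release, were not given in the sources used here. Salmon divides reads between similar transcripts by estimation, so near-identical genes share uncertainty, and antisense partners are uncertain too because strand use is not given.

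Counts were fitted with edgeR 4.0.16 in R 4.3.3 over all 18 libraries: a filter by filterByExpr, TMM scaling, a separate mean for each group, quasi-likelihood F tests and Benjamini-Hochberg adjustment over the 19629 genes tested, with adjusted p under 0.05 as threshold. The common biological coefficient of variation was 4.58%. Levels are CPM with TMM factors, per library or as mean ± SD (n = 3). The SE of a log2 fold change is its size over the square root of F. The interaction is the log2 fold change in sphere medium minus that in full medium. Fits were tested on simulated data in which few genes changed, equally in both directions, unlike the data here. That test therefore does not check the scaling or the error rate for these data. No libraries held identical values. Samples were grouped by their labels. Over a group at 0 counts a fold is a lower bound from 3 counts per group, and over 1 to 3 counts a ratio with an exact 95% interval; both cover counting error only.

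The members and the 51 gene lists (989 genes, 883 tested) were chosen with earlier results of these data known, and lists are described by counts and medians with no test. Named genes were KDM6A; the 12 largest rises and falls among called protein-coding genes with separated libraries and at least 5 CPM on average; the 8 largest rises and falls in CPM; in each list the 3 largest rises and falls at a mean of at least 1 CPM; every member of lists of 12 or fewer; and the 6 largest in each direction for the interaction, for UTX against HEAA and for opposite effects in the 2 media. Other list members and genes of chromosome runs named in the text were chosen after their values were seen. Some genes that this rule names are not reported here.

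Positions are from GENCODE 29 on GRCh38, matched by gene ID without version for 99.47% of IDs, a later build than that in the notes. Promoters are RefSeq, GRCh38.p14. Replicate numbers did not pair libraries (correlations of deviations −0.043 to 0.059). The alternatives were DESeq2 1.42.0, DESeq2 size factors, total count scaling, other filters, the 6 libraries alone, a replicate block and leaving out each library. The second experiment of the series was not used here.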

Additional observations from a re-analysis of the deposited data

Results flagged for a closer look

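The difference between UTX and EV libraries changed between sphere and full medium, by the interaction term, for the following named genes. It is given as the log2 fold change in sphere medium minus that in full medium. In the direction of a larger value in sphere medium these were S100A7 (10.19), SERPINB3 (9.59), PI3 (8.56), DSG1 (7.25), KRT23 (6.81), S100A12 (6.04), CYP4F22 (5.94), SPRR3 (4.76), SERPINB9 (3.16) and FLG (2.81), which include inhibitors of elastase and other proteases and proteins of the upper squamous layers. In the direction of a smaller value these were SESN3 (−5.14), TCIM (−3.76), ARHGAP28 (−2.88), NRP2 (−2.82), MEGF6 (−2.70), UST (−2.68), NSG1 (−2.34), LBH (−2.33) and KRT16 (−2.30).

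Several of the first set had almost no counts in UTX_full, so their fitted values depend on the prior count and are no bound. In full medium S100A7 had 66 counts over the 3 EV libraries and 0 over the 3 UTX libraries (at least 19.6-fold lower with UTX), SERPINB3 443 and 0 (at least 131.5-fold lower), DSG1 517 and 0 (at least 153.4-fold lower) and S100A12 13 and 0 (at least 3.86-fold lower). The EV to UTX ratio of PI3 (668 against 2 counts) was 297.3, with a 95% interval from counting error alone of 82.0 to 2460.2, that of KRT23 (83 against 2) was 36.9 (9.91 to 310.1) and that of CYP4F22 (9 against 1) was 8.01 (1.11 to 351.2). In sphere medium SERPINB3 fell from 83.8 to 62.8 CPM and PI3 rose from 273.3 to 411.5 CPM with UTX.

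SESN3, a stress-induced sestrin, fell from 9.29 ± 0.307 to 3.65 ± 0.372 CPM in sphere medium and rose from 0.0577 ± 0.0272 to 0.862 ± 0.0239 CPM in full medium (SD, n = 3). The neuropilin NRP2 fell from 28.2 to 9.32 CPM in sphere medium and rose from 12.4 to 28.8 CPM in full medium.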

How the results depend on the processing

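Against 4477 higher and 5027 lower genes in sphere medium, the counts were 4180 and 4505 with DESeq2, 4541 and 4904 with DESeq2 size factors, 4671 and 4469 without the filter, 4392 and 4821 with at least 1 CPM in 3 libraries, and 4301 and 4664 with the 6 libraries alone. On leaving out 1 library they were 4028 to 4227 and 4653 to 4949. With the replicate number as a block, which did not pair the libraries, they were 4418 and 4963 in sphere medium, 5509 and 5690 in full medium, 4100 and 3104 for the interaction and 1675 and 2104 for UTX against HEAA. Genes higher in UTX than in HEAA were 998 to 1347 on leaving out 1 library, the lowest without UTX_sphere 2. No fold change of a named gene that was called turned its sign under these alternatives. The balance of calls did turn, from more lower to more higher genes, by total count scaling (6020 and 3366) and without the filter. Of 4875 values of named genes under alternatives 4788 kept their side of the threshold, 59 were no longer called and 28 became called. Of 1326 counts of list members 64 moved by more than 1.5 times, 18 of them under total count scaling, by which PRC2 genes were 4 higher and 1 lower, luminal factors 8 higher, basal factors 6 higher, connexins 6 higher and 1 lower, and HOX genes 2 lower. Genes under 1 CPM rest on few counts, and EV libraries were deeper than UTX libraries.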
